A study of Homo sapiens with 9 samples.

Results

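The proprotein convertases FURIN, PCSK5, PCSK6 and PCSK7, the related site-1 protease MBTPS1, and the serine proteases HTRA1, HTRA2, PRSS23, FAP and DPP4 were examined in HT1080 cells, an established human fibrosarcoma line. The members were these 10 named genes, and every probe set that the platform annotation assigns to only 1 of them was taken. This gave 23 of the 41091 probe sets that name a single gene, and 10 of 19775 genes. RNA was hybridised to 9 one-colour Affymetrix arrays. Cells in all 3 groups had been seeded on a bovine dermal collagen gel of 1.7 mg/ml in medium with 10% serum, and had adhered for 24 h before treatment. One group of 3 arrays came from cells given a protease inhibitor mix (PI) for 24 h, and a further 3 arrays from cells given it for 4 h. The mix contained GM6001 at 100 µM (a metalloproteinase inhibitor), pepstatin A at 50 µM (aspartic proteases), E64 at 250 µM (cysteine proteases), and aprotinin and leupeptin at 2 µM each (both act on serine proteases, leupeptin also on cysteine proteases). The remaining 3 arrays came from untreated cells, whose titles name a vehicle that is not described further. The design text calls the replicates biological, and no harvest time is stated for untreated cells.

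Proprotein convertases are calcium-dependent, subtilisin-like serine proteases of the secretory pathway. They cut precursors of growth factors, receptors, integrins and metalloproteinases after basic residues, and many of these precursors become active only after the cut. MBTPS1 belongs to the same fold but cuts membrane-bound transcription factors in the Golgi, whereas HTRA1, HTRA2 and PRSS23 have a trypsin-like fold and FAP and DPP4 are cell-surface enzymes that cut next to proline. Not all of the 10 act outside the cell: HTRA2 resides in mitochondria, and MBTPS1 works inside the Golgi.

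No member gene passed the test in any of the 3 comparisons. The test was limma on log2(intensity + 16) with Benjamini-Hochberg adjustment over all 19775 genes and a threshold of 0.05. After 24 h 0 of 10 members were called against untreated cells, where 0.465% of all genes were called, and 2 of 10 had an unadjusted p under 0.05, as had 15.8% of all genes. After 4 h 0 of 10 were called (0.248% of all genes), and 3 of 10 had an unadjusted p under 0.05 (12.4% of all genes). Between 24 h and 4 h 0 of 10 were called (0.142% of all genes), and 2 of 10 had an unadjusted p under 0.05 (11.3% of all genes). The median log2 change of the members was -0.09 at 24 h, -0.25 at 4 h and -0.01 for 24 h against 4 h, beside 0.01, 0.01 and -0.004 for all genes. Over the 23 probe sets, tested among all 41091, 0 were called in any comparison. The shares called among all of them were 0.11% at 24 h, 0.0389% at 4 h and 0.0365% for 24 h against 4 h, and 4, 4 and 5 of the 23 had an unadjusted p under 0.05, as had 14.3%, 11.3% and 10.3% of all probe sets.

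Levels are linear intensities as deposited, scaled on each array to the same trimmed mean, and are given as mean ± SD (n = 3). They are not compared between genes. Mean intensity over the 9 arrays was under 16 for 3 of the 10 genes (PCSK5, FAP and DPP4), and the same held for 39.6% of all genes. In a bulk sample a change in RNA per cell and a change in the share of cells that hold it cannot be told apart. The arrays differed with treatment beyond these genes. For ACTB, a control of RNA quality, the 5' probe set over the 3' one gave 0.697 ± 0.038 at 24 h, 0.723 ± 0.132 at 4 h and 0.893 ± 0.034 untreated, and replicate 2 of the 4 h group lay apart from its group at 0.871. The same ratio for GAPDH was not lower in treated cells, at 1.079 ± 0.018 at 24 h, 1.074 ± 0.029 at 4 h and 1.049 ± 0.001 untreated. The poly-A spike-in controls averaged 9.94 ± 0.03 at 24 h, 9.55 ± 0.20 at 4 h and 8.75 ± 0.07 untreated on the log2 scale. The 6 mesenchymal markers had summed intensities of 28213 to 29610 at 24 h, 25509 to 29660 at 4 h and 23360 to 26761 untreated. These sums rest mainly on VIM and LGALS1, and the markers did not move alike. At 24 h 4 of the 6 had a log2 change above 0 and 2 (S100A4 and SPARC) below 0, and at 4 h 3 lay on each side. All 6 epithelial and all 4 leukocyte markers averaged under 16 in every group. The 4 endothelial markers summed to 65.8 to 103 at 24 h, 48.2 to 64.6 at 4 h and 28.6 to 42.0 untreated, with 3 of 4 under 16 in each group. CDH5, which defines endothelial cells, averaged 1.73 at 24 h, 9.23 at 4 h and 1.80 untreated. PECAM1, the 1 endothelial marker over 16, averaged 51.1, 35.0 and 26.5 in the same order. KDR averaged 11.1, 7.5 and 4.03, and VWF 14.5, 4.57 and 3.5. The 24 h mean of VWF rested on replicate 2, at 31.6. The 5 fibroblast markers summed to 66.6 to 114 at 24 h, 135 to 154 at 4 h and 96.2 to 136 untreated, with 3, 1 and 2 of them under 16. The part of RNA quality, spike-in level or of other cells in the values below was not tested.

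Among the convertases, PCSK7 had the lowest levels in treated cells relative to untreated ones. PCSK7 is a membrane-bound convertase that, among other cuts, sheds the transferrin receptor. Its intensities were 71.0, 113.3 and 64.9 at 24 h, 107.3, 127.1 and 100.4 at 4 h, and 138.9, 139.8 and 161.9 untreated. All 24 h arrays and all 4 h arrays were lower than all untreated arrays, whereas the 24 h and 4 h arrays overlapped through replicate 2 at 24 h. The log2 change was -0.75 ± 0.18 SE at 24 h (95% interval -1.16 to -0.34, adjusted p = 0.0977), 1.68-fold lower, and -0.35 ± 0.18 SE at 4 h (interval -0.76 to 0.05, adjusted p = 0.477). The change at 24 h did not pass, though it did with dim genes filtered out at the 40th percentile (adjusted p = 0.0434) and with a pseudocount of 64 (adjusted p = 0.038). These were 2 of 17 alternatives, and the adjusted p reached 0.27 in the others. The other probe set of PCSK7 was dim and scattered, at 13.7 ± 9.0 after 24 h, 27.9 ± 22.8 after 4 h and 20.9 ± 3.8 untreated.

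FURIN, the widely expressed convertase of the trans-Golgi network, did not pass in any comparison. Its 1 probe set read 61.2, 54.5 and 45.4 at 24 h, 35.5, 84.1 and 73.2 at 4 h, and 66.5, 79.0 and 86.2 untreated. The 24 h arrays lay under all untreated arrays, and the 4 h arrays overlapped both other groups. On the log2 scale FURIN differed by -0.42 ± 0.23 SE at 24 h (interval -0.94 to 0.10, adjusted p = 0.425) and -0.27 ± 0.23 SE at 4 h (interval -0.79 to 0.25, adjusted p = 0.705). The 4 h value rested on replicate 1, and without that array it was 0.02.

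PCSK6, a convertase that binds heparan sulphate in the matrix, was the 1 member above untreated levels on every 4 h array. Its representative probe set read 22.4, 23.7 and 36.5 at 24 h, 29.2, 44.7 and 28.7 at 4 h, and 23.4, 6.6 and 22.3 untreated. The 4 h arrays were all higher than the untreated ones, and the 24 h arrays overlapped both groups. The log2 change at 4 h was 0.62 ± 0.23 SE (interval 0.09 to 1.14, adjusted p = 0.337) and at 24 h 0.41 ± 0.23 SE (interval -0.12 to 0.94, adjusted p = 0.443). Both values leaned on replicate 2 of the untreated group, without which they were 0.36 at 4 h and 0.15 at 24 h. Its 4 single-gene probe sets differed in sign at both times: at 4 h 1 of 4 and at 24 h 1 of 4 lay below 0. A further 2 probe sets name PCSK6 together with another locus and were left out, and on both of them the groups overlapped. They averaged 104 and 44.9 over the arrays, beside 26.4 for the representative one, and neither had a higher mean at 4 h than untreated. The brighter measured 111 ± 11 at 24 h, 100.0 ± 11.3 at 4 h and 100.4 ± 13.7 untreated. The dimmer measured 43.0 ± 0.2, 42.0 ± 2.2 and 49.9 ± 15.3 in the same order.

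PCSK5, a convertase that acts in part at the cell surface, was near the lower end of the scale. The representative probe set read 21.4, 15.3 and 19.3 at 24 h, 18.5, 3.8 and 2.3 at 4 h, and 16.9, 12.8 and 5.0 untreated. Every pair of groups overlapped. The difference between 24 h and 4 h was 0.58 ± 0.25 SE on the log2 scale (interval 0.02 to 1.13, adjusted p = 0.431). Another PCSK5 probe set was higher on every 24 h array than on every 4 h array, by 0.55 (adjusted p = 0.395 over all probe sets). The remaining one overlapped between these groups, with a log2 change of 0.05. All 3 probe sets of PCSK5 averaged under 16 over the arrays, so their levels have no detection call behind them.

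MBTPS1, the site-1 protease, makes the first cut that releases SREBP and ATF6 from Golgi membranes and also cleaves the precursor of a lysosomal targeting enzyme encoded by GNPTAB. Its brighter probe set read 287.5, 247.7 and 256.0 at 24 h, 242.5, 255.9 and 194.2 at 4 h, and 266.2, 333.0 and 321.3 untreated. The 4 h arrays lay under all untreated arrays, while the 24 h arrays overlapped both groups. MBTPS1 had a log2 change of -0.20 ± 0.14 SE at 24 h (interval -0.52 to 0.12, adjusted p = 0.546) and -0.39 ± 0.14 SE at 4 h (interval -0.71 to -0.07, adjusted p = 0.315). Its other probe set gave a log2 change of -0.03 ± 0.16 SE at 4 h (adjusted p = 0.969 over all probe sets), with overlapping arrays.

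HTRA1, a secreted trypsin-like protease that degrades matrix proteins, had the second lowest log2 change at 24 h. Its single probe set read 178.2, 176.4 and 205.8 at 24 h, 170.7, 289.6 and 247.1 at 4 h, and 292.3, 302.5 and 303.0 untreated. All treated arrays were under all untreated ones, and the 4 h arrays spread over a wide range, with replicate 2 close to the untreated level. The log2 change was -0.64 ± 0.17 SE at 24 h (interval -1.03 to -0.25, adjusted p = 0.122), 1.56-fold lower, and -0.35 ± 0.17 SE at 4 h (interval -0.74 to 0.04, adjusted p = 0.453). The change at 24 h passed the threshold in 1 of 17 alternatives, a pseudocount of 64 (adjusted p = 0.0478), and the adjusted p reached 0.293 in the others. Without replicate 2 the 4 h value was -0.51 (adjusted p = 0.199), and without replicate 1 it was -0.15.

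HTRA2, which is released from mitochondria during cell death and binds the inhibitor of apoptosis XIAP, was the 1 member above untreated levels on every 24 h array. It read 597.5, 666.8 and 664.0 at 24 h, 535.9, 571.1 and 461.8 at 4 h, and 515.1, 583.2 and 555.9 untreated. The 24 h arrays were higher than every 4 h and untreated array, and the 4 h and untreated arrays overlapped. HTRA2 had a log2 change of 0.22 ± 0.12 SE at 24 h against untreated (interval -0.06 to 0.49, adjusted p = 0.439) and 0.29 ± 0.12 SE at 24 h against 4 h (interval 0.02 to 0.57, adjusted p = 0.415). Its other probe set separated the same groups, at 421 ± 20 after 24 h, 354 ± 38 after 4 h and 373 ± 29 untreated.

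The probe sets of PRSS23 did not move alike. PRSS23 encodes a secreted protein with a trypsin-like domain whose substrates are little known. The brightest probe set read 1424.4, 1337.4 and 1556.2 at 24 h, 1235.9, 1203.5 and 1196.2 at 4 h, and 1530.3, 1514.8 and 1625.7 untreated. Here the 4 h arrays were under all others, and the 24 h and untreated arrays overlapped. This probe set had a log2 change of -0.11 ± 0.11 SE at 24 h (interval -0.36 to 0.13, adjusted p = 0.677) and -0.36 ± 0.11 SE at 4 h (interval -0.60 to -0.11, adjusted p = 0.23). The 4 h value, 1.28-fold lower, passed only with a pseudocount of 64 (adjusted p = 0.0441).

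The next brightest PRSS23 probe set, here called the middle one, read 377.6, 433.7 and 448.0 at 24 h, 559.7, 526.8 and 769.8 at 4 h, and 711.2, 654.5 and 598.7 untreated. A dimmer one read 133.6, 92.5 and 109.9 at 24 h, 176.4, 135.4 and 142.6 at 4 h, and 153.4, 169.9 and 209.5 untreated. On both, all 24 h arrays lay under all other arrays and the 4 h arrays overlapped the untreated ones, unlike on the brightest probe set. Their log2 changes at 24 h were -0.62 ± 0.16 SE (adjusted p = 0.129 over all probe sets) and -0.60 ± 0.17 SE (adjusted p = 0.151). The fourth PRSS23 probe set averaged 2.02 over the arrays.

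To compare these changes within arrays, the log2(intensity + 16) ratio of the brightest to the middle probe set was taken, a comparison chosen after the values were seen. It was 1.74 ± 0.14 at 24 h, 0.97 ± 0.30 at 4 h and 1.23 ± 0.17 untreated. The 24 h arrays (1.59 to 1.87) overlapped neither the 4 h arrays (0.63 to 1.17) nor the untreated arrays (1.09 to 1.42). Each exact two-sided permutation p was 0.1 (0.225 after Benjamini-Hochberg adjustment over 9 ratio comparisons), and a design of 3 against 3 allows none under 0.1. The ratio of the brightest to the dimmer probe set differed in the same way, by 0.48 at 24 h against untreated (exact permutation p = 0.1, 0.225 adjusted). The ratio of the middle to the dimmer probe set overlapped between all groups, with a difference of -0.02 at 24 h against untreated (exact permutation p = 0.8). With the mean over its 4 probe sets, PRSS23 had a log2 change of -0.20 for 24 h against 4 h, where the brightest probe set alone gave 0.24. The positions of these probe sets in the transcript were not analysed here.

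**Figure D1:**
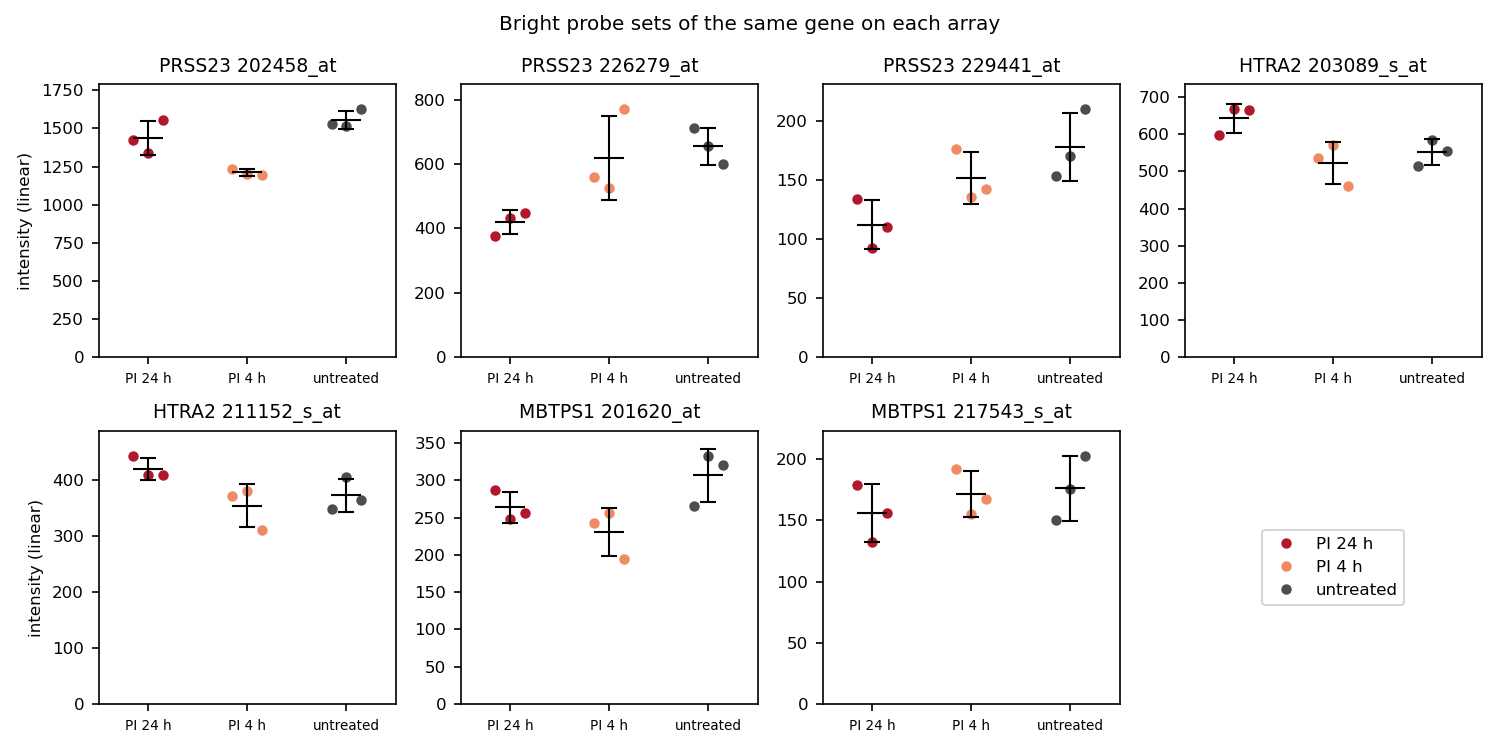
Intensity on each array (points) for the 3 bright PRSS23 probe sets and both probe sets of HTRA2 and MBTPS1, with group mean and SD (bars, n = 3 per group) and a linear axis from 0 in each panel. The PRSS23 panels run from brightest to dimmest, of which the brightest has its lowest mean at 4 h and the others at 24 h, whereas the 2 HTRA2 probe sets show the same order of groups.

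The surface enzymes FAP and DPP4 were at or near the bottom of the scale in every group. FAP, a marker of activated fibroblasts that cuts denatured collagen, read 11.8, 1.3 and 2.6 at 24 h, 3.8, 3.6 and 3.5 at 4 h, and 10.6, 6.1 and 1.7 untreated. DPP4, also known as CD26, which trims peptides and chemokines, read 11.1, 13.3 and 1.5 at 24 h, 21.2, 8.5 and 2.9 at 4 h, and 8.1, 14.7 and 1.3 untreated. For both genes the groups overlapped in every comparison. The log2 change of FAP was -0.07 ± 0.20 SE at 24 h (interval -0.53 to 0.38, adjusted p = 0.907), and that of DPP4 was 0.04 ± 0.30 SE (interval -0.63 to 0.71, adjusted p = 0.97). No difference was detected at such levels by limma, and the smallest difference that these arrays could detect there was not determined. The other probe sets of DPP4 averaged 3.08 and 0.94.

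Across the 10 genes at 24 h, 3 (PCSK7, HTRA1 and FURIN) were lower and 1 (HTRA2) was higher on every treated array than on every untreated array. Such separation held for 12.2% of all genes in the lower and 12.8% in the higher direction. At 4 h 4 members (PCSK7, MBTPS1, HTRA1 and PRSS23) were lower and 1 (PCSK6) was higher without overlap, beside 8.14% and 9.37% of all genes. Between 24 h and 4 h the arrays separated for 2 members on their representative probe sets, HTRA2 and PRSS23, both higher at 24 h. Such separation held for 7.35% of all genes in the higher and 7.85% in the lower direction. The middle and dimmer PRSS23 probe sets separated the other way, with all 24 h arrays lower than all 4 h arrays. Their log2 changes were -0.53 (adjusted p = 0.309 over all probe sets) and -0.39 (adjusted p = 0.479). Both treated groups are set against the same untreated arrays. PCSK7 and HTRA1 were the 2 members without overlap at both times, and neither passed the test at either. The share of all genes without overlap at both times was not determined.

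**Figure D2:**
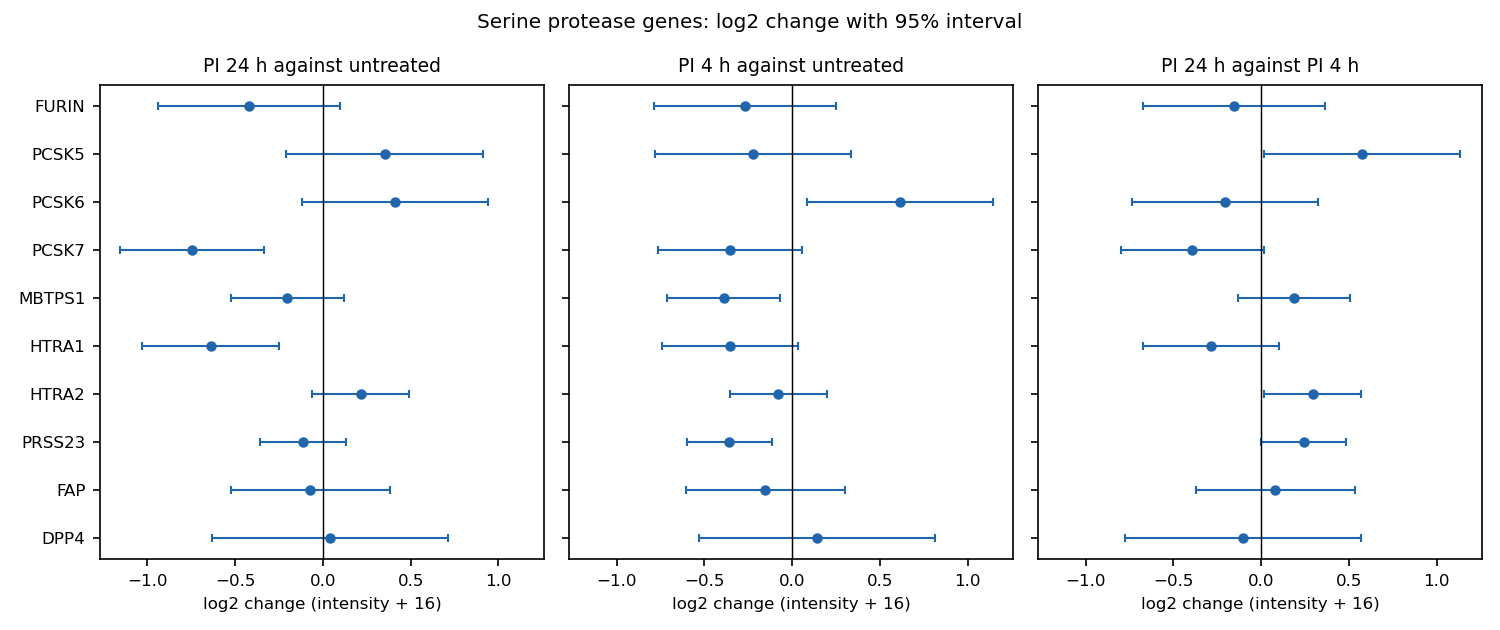
Log2 change of each of the 10 genes (points) with its 95% interval (bars) from limma on log2(intensity + 16), for PI 24 h against untreated, PI 4 h against untreated and PI 24 h against PI 4 h. Intervals of PCSK7 and HTRA1 exclude 0 at 24 h and those of MBTPS1, PRSS23 and PCSK6 do at 4 h, and those of PCSK5 and HTRA2 do for 24 h against 4 h, before adjustment over all genes, after which 0 of the 10 genes passed.

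For PCSK7, the member with the smallest p at 24 h, the 3 genes with the most similar pattern were sought among 7053 genes with a mean intensity of at least 100. Likeness was the Euclidean distance between centred log2 values over the 9 arrays, whose median was 1.19. HLA-DPA1, a class II histocompatibility chain, lay at 0.30, with 252 ± 53 at 24 h, 325 ± 49 at 4 h and 399 ± 25 untreated. BCAR1, an adaptor protein of focal adhesions, lay at 0.39, and NMB, which encodes the peptide neuromedin B, at 0.42.

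Genes around the proteases were examined as 7 lists. The substrates and partners of the site-1 protease held 1 called gene among 15 at 24 h, where 0.465% of all genes were called: INSIG1, which retains the SREBP escort SCAP in the endoplasmic reticulum, rose at 24 h. INSIG1 read 738.3, 698.1 and 737.0 at 24 h, 502.8, 377.6 and 456.8 at 4 h, and 360.0, 359.3 and 380.6 untreated. The log2 change at 24 h was 0.95 ± 0.13 SE (adjusted p = 0.0266), with all 3 of its probe sets above 0, and 0.69 against 4 h (adjusted p = 0.0803, which passed with a pseudocount of 64 at 0.0106 and with the filter at the 40th percentile at 0.03). The call at 24 h was lost without any 1 of the 6 arrays compared (adjusted p between 0.0883 and 0.159), with a pseudocount of 1 (0.0739) and with the replicate number as a block (0.0759). Of the 15 genes, 4 had an unadjusted p under 0.05 at 24 h (15.8% of all genes), and 4 were higher on every 24 h array than on every untreated array (12.8% of all genes). The list's median change was 0.07 at 24 h, -0.02 at 4 h and 0.11 for 24 h against 4 h.

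Other members of the site-1 protease list did not pass. CREB3, a membrane-bound transcription factor, measured 929 ± 45 at 24 h and 709 ± 24 untreated (adjusted p = 0.17, or 0.0484 with a pseudocount of 64). CREB3L2, a relative of CREB3, measured 390 ± 50 at 4 h and 323 ± 23 untreated (adjusted p = 0.53), and 2 of its 3 probe sets went the other way. SREBF1, a precursor of SREBP, measured 35.4 ± 7.2 at 24 h and 54.0 ± 7.4 at 4 h, with an adjusted p of 0.343, and its 2 probe sets differed in sign.

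Of 26 analysed precursors cut by convertases, 1 was called lower at 24 h by limma, where 0.465% of all genes were called. None passed in the other comparisons (0.248% of all genes at 4 h and 0.142% for 24 h against 4 h). An unadjusted p under 0.05 was found for 10 of the 26 at 24 h (15.8% of all genes), 5 at 4 h (12.4%) and 5 for 24 h against 4 h (11.3%). At 24 h 10 of the 26 were lower and 4 higher on every treated array than on every untreated array, beside 12.2% and 12.8% of all genes. BDNF, a neurotrophin made as a precursor, fell to 46.6, 57.8 and 45.3 at 24 h, with 91.7, 69.8 and 76.8 at 4 h, against 90.9, 108.0 and 97.4 untreated. The log2 change was -0.80 ± 0.13 SE (adjusted p = 0.0474), and both of its probe sets lay below 0. This call was lost without any 1 of the 6 arrays compared or without replicate 1 or 3 of the 4 h group (adjusted p up to 0.186). It was also lost with a pseudocount of 1 (0.103), the mean over probe sets (0.0698), median centring (0.0522) and the replicate block (0.114).

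ITGA3, an integrin subunit cut by convertases, measured 288 ± 30 at 24 h, 322 ± 52 at 4 h and 459 ± 28 untreated (adjusted p = 0.0804 at 24 h and 0.21 at 4 h). Its change at 24 h passed with a pseudocount of 64 (0.0193) and with the filter at the 40th percentile (0.033). FBN1, fibrillin 1, whose tail is removed by FURIN, measured 167 ± 26 at 4 h and 99.7 ± 12.7 untreated (adjusted p = 0.146), and 1 of its 3 probe sets went the other way. BMP2, a growth factor precursor, measured 36.3 ± 11.9 at 24 h and 69.3 ± 22.5 at 4 h (adjusted p = 0.272). The median change of this list was -0.03 at 24 h, 0.02 at 4 h and -0.04 for 24 h against 4 h, beside 0.01, 0.01 and -0.004 for all genes.

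No gene of the other 5 lists passed in any comparison by limma, and 9, 3 and 5 of their 62 genes had an unadjusted p under 0.05 at 24 h, at 4 h and for 24 h against 4 h, beside 15.8%, 12.4% and 11.3% of all genes. Of the subtilisin-like relatives, TPP2, a cytosolic peptidase, measured 208 ± 25 at 24 h, 186 ± 33 at 4 h and 177 ± 21 untreated, and at 4 h 3 of its 4 probe sets went the other way. PCSK4, a convertase known from germ cells, measured 17.4 ± 11.4, 21.0 ± 15.8 and 29.0 ± 4.5 in the same groups. Their adjusted p lay between 0.561 and 0.945 in all 3 comparisons.

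Among the HtrA relatives and partners of HTRA2 (10 genes), BIRC2, an inhibitor of apoptosis, measured 1466 ± 258 at 4 h and 910 ± 104 untreated (adjusted p = 0.118, or 0.0318 with a pseudocount of 64), and 1039 ± 24 at 24 h (adjusted p = 0.259 against 4 h). XIAP measured 267 ± 35 at 4 h and 210 ± 18 untreated (adjusted p = 0.375), and 2 of its 7 probe sets went the other way. PARL, a mitochondrial rhomboid protease, measured 1584 ± 66 at 24 h and 1285 ± 22 untreated (adjusted p = 0.244). BIRC5, survivin, measured 1259 ± 35 at 24 h and 1542 ± 7 untreated (adjusted p = 0.237), and 1 of its 4 probe sets went the other way. PINK1, a mitochondrial kinase, measured 365 ± 32 at 24 h and 308 ± 29 at 4 h (adjusted p = 0.536). The arrays of BIRC2, PARL and BIRC5 did not overlap the untreated ones in the comparison named, and those of XIAP and PINK1 overlapped.

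Among the 7 further genes listed with DPP4 and FAP, DPP7, a lysosomal dipeptidase, measured 117 ± 17 at 24 h, 170 ± 52 at 4 h and 217 ± 9 untreated. Its adjusted p was 0.0862 at 24 h, 0.486 at 4 h and 0.411 for 24 h against 4 h. At 24 h 1 of its 3 probe sets went the other way, and so did 1 of the 3 at 4 h. The 24 h change passed with a pseudocount of 64 (0.0319), with the filter at the 40th percentile (0.0369), with the compared groups alone (0.0482) and without replicate 2 of the 4 h group (0.037). DPP9, a cytosolic dipeptidase, measured 132 ± 6 at 24 h and 108 ± 18 at 4 h (adjusted p = 0.534). DPP6 and DPP10, which lack protease activity, averaged at most 14.1 in any group (adjusted p = 0.274 for DPP6 at 24 h and 0.37 for DPP10 at 4 h).

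The list of other secreted and membrane serine proteases was mostly dim, with 19 of 30 analysed genes under a mean of 16. Its leading genes were HPN and PRSS22 at 4 h, KLK8 and TMPRSS6 at 24 h, and CFI and F2 for 24 h against 4 h, with adjusted p between 0.244 and 0.54. HPN measured 19.4 ± 10.1 and PRSS22 37.4 ± 2.9 at 4 h, against 29.6 ± 5.1 and 28.5 ± 6.0 untreated. KLK8 measured 16.8 ± 5.1 and TMPRSS6 33.7 ± 14.3 at 24 h, against 4.53 ± 1.1 and 11.8 ± 14.3 untreated. CFI and F2 averaged at most 8.03 in any group. Of the protease inhibitors (13 analysed), SPINK1, a trypsin inhibitor, measured 62.1 ± 5.5 at 24 h, 32.4 ± 7.3 at 4 h and 29.7 ± 5.6 untreated (adjusted p = 0.0543 at 24 h and 0.113 against 4 h, or 0.0433 and 0.0496 against 4 h with a pseudocount of 64 and with the filter). Its 24 h arrays were above all others, and the change at 24 h passed with the filter at the 40th percentile (0.0201), with a pseudocount of 64 (0.0182) and without replicate 2 of the 4 h group (0.0469). SERPINB8, an intracellular serpin that inhibits FURIN, measured 776 ± 112 at 24 h, 690 ± 137 at 4 h and 543 ± 56 untreated (adjusted p = 0.206 at 24 h and 0.503 at 4 h), and its 24 h arrays were all higher than the untreated ones. SPINT1, PI3 and SLPI were dim, each with a group mean of at most 41.7 (adjusted p = 0.473 for SPINT1 at 4 h, 0.189 for PI3 at 24 h and 0.274 for SLPI at 24 h against 4 h). In the comparison named, 1 of the 2 probe sets of SPINT1 and 1 of the 2 of PI3 went the other way.

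**Figure D3:**
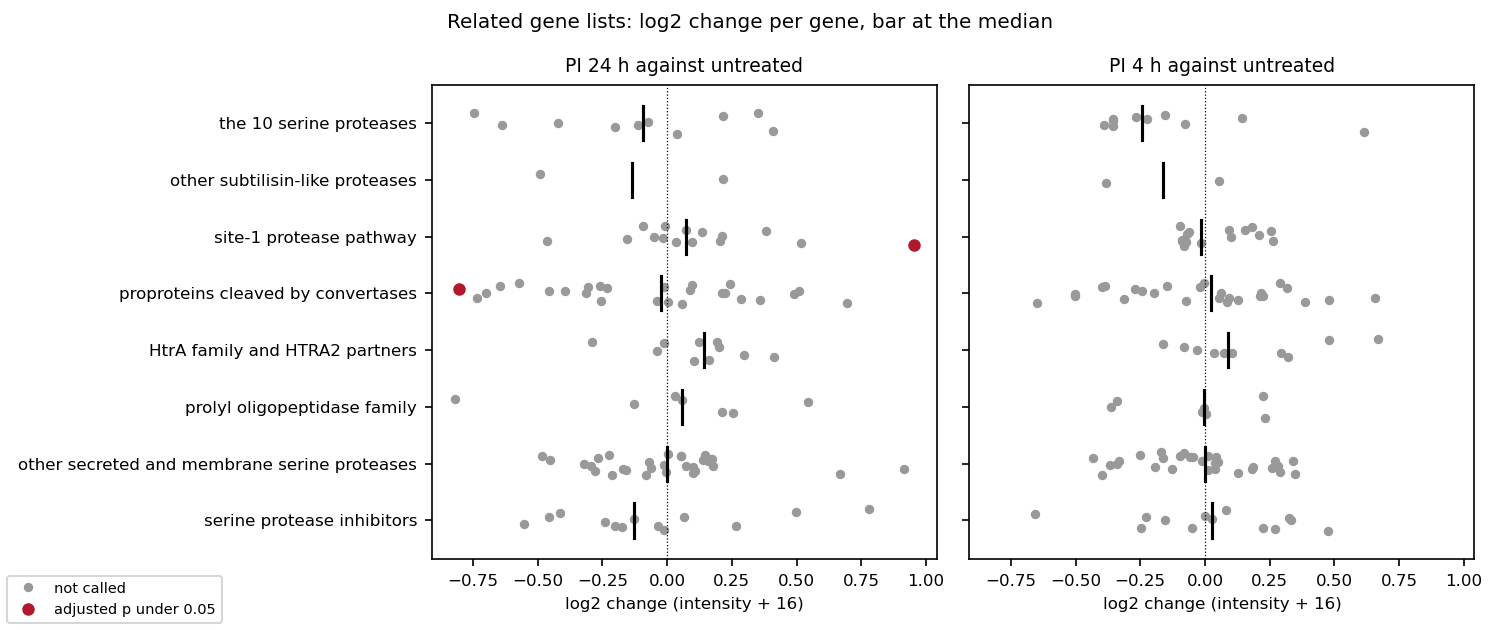
Log2 change of each gene (points) in the 10 serine proteases and in 7 related lists, for PI 24 h and PI 4 h against untreated, with a bar at each median and vertical scatter for legibility only. The called genes, INSIG1 and BDNF, stand in red at 24 h, and no gene of these lists is red at 4 h.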

How the data were processed

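The authors deposited 1 linear intensity per probe set and array, for 54675 probe sets on 9 arrays. Per the submitters' processing notes R 2.9.2 and RMA were used, without a stated role, and no summarisation step is stated. Per the labels, cRNA came from 6 µg of total RNA. The deposited values reach 0 and were scaled so that the mean after trimming 2% at each end is 100 on every array, which hides any change in total mRNA. There are no detection calls, and the number of arrays limits the precision. All 9 columns were used.

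The 62 control probe sets were left out. By the platform annotation, updated by Entrez identifier through RefSeq (41037 of 41091 matched), 41091 probe sets named 1 gene, 1801 several and 11721 were not listed. Each gene was represented by its probe set with the highest mean log2 value, without a filter. Values were transformed as log2(intensity + 16), which understates changes of dim genes, so fold changes are on that scale. limma 3.58.1 in R 4.3.3 (lmFit, eBayes, 1 mean per group over all 9 arrays) gave two-sided p-values, with Benjamini-Hochberg adjustment across the genes or the probe sets tested. Every adjusted p comes from this model unless a permutation test is named. The model was tested on simulated data.

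Alternatives were pseudocounts of 1 and 64, a filter at the 40th percentile, the mean over probe sets, quantile normalization, median centring, the compared groups alone, a replicate block and leaving out each array. For the related lists these were added after seeing the data. Members and lists were chosen with earlier results of these data known. All members were named; of each list, every called gene and the 2 with the smallest p per comparison. Some listed genes were not analysed here. Close paralogs cannot be separated with certainty by probe sets.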

Additional observations from a re-analysis of the deposited data

How the results depend on the processing

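The count of member genes called was 0 in each comparison and changed in 3 of 51 alternative runs: with a pseudocount of 64 it was 1 at 4 h and 2 at 24 h, and with the filter at the 40th percentile 1 at 24 h. That filter also shortens the list over which p is adjusted. The count of member probe sets called was 0 in all 48 alternative runs. Over all genes, 92 were called at 24 h, 49 at 4 h and 28 between the times; leaving out 1 array gave 0 to 256, 3 to 15 and 6 to 18, and the other alternatives 1 to 826, 2 to 273 and 1 to 251. Same-numbered arrays of different groups had correlations of -0.0441 to 0.0573 between their deviations from the group means, and 0 of 9 such pairs was over 0.1. Differently numbered arrays of different groups had correlations of -0.04645 to 0.0794. These values do not settle whether the replicate numbers pair the arrays. With the replicate block 0 member genes and 0 member probe sets were called in each comparison.

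Directions of uncalled changes turned as follows. Without 1 array the log2 change at 24 h ranged from -0.283 to 0.0698 for FAP and from -0.178 to 0.269 for DPP4. At 4 h it ranged from -0.454 to 0.025 for FURIN, from -0.142 to 0.00641 for HTRA2 and from -0.12 to 0.368 for DPP4. For 24 h against 4 h it ranged from -0.445 to 0.034 for FURIN, from -0.13 to 0.212 for FAP and from -0.329 to 0.16 for DPP4. With the mean over probe sets PRSS23 turned to -0.202 for 24 h against 4 h, and TPP2 to -0.0661 and CREB3L2 to -0.0802 at 4 h. Without 1 array PCSK4 ranged from -0.663 to 0.0162 at 4 h and from -0.508 to 0.217 for 24 h against 4 h, and TPP2 from -0.0269 to 0.198 at 4 h. The causes were not tested. Values under about 16 have no detection call, which limits statements on PCSK5, FAP, DPP4 and most of the list of other secreted proteases.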
